A study of Ambystoma mexicanum with 3 samples.

Results

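The genes described here build the contractile unit of striated muscle, the sarcomere, and release the calcium that starts contraction. They were taken by symbol: every feature named *Myh*, *Myl*, *Tnnc*, *Tnni*, *Tnnt*, *Tpm*, *Myom*, *Mybpc*, *Actn* or *Ryr* followed by a number, together with *Ttn*, *Neb*, *Obsl1*, *Mypn* and *Speg*. In all 274 features with 54 symbols matched, and 45 symbols held at least 20 unique molecular identifiers (UMIs, each 1 captured RNA molecule) in the libraries together. The series held 11772 named symbols with as many UMIs. Of the 45 members, 36 belong to striated muscle by known role and 9 to the contractile machinery of other cells, and 37 members held at least 200 UMIs. Below 20 UMIs fell *Myh11* with 18, *Mybpc2* with 7, *Myl3* with 4, *Tnni3k* with 2, and *Myh6*, *Myh7b* and *Tnnt2* with 1 each, whereas *Mybpc1* and *Myl6* had a feature and no UMI.

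Single nuclei RNA-Seq (snRNA-Seq) was made on the tail tips of axolotl (*Ambystoma mexicanum*) embryos at stage 42. The Rom 6 HPA library holds nuclei of embryos kept in 10 μM romidepsin, an inhibitor of class I histone deacetylases, until 6 h post amputation (HPA). The Cont 6 HPA library holds nuclei of amputated embryos kept in rearing water for the same time, and the 0 HPA library nuclei of control embryos at amputation. For each 6 HPA library the tips of 100 embryos were pooled, so each library is 1 pool and the design gives no spread between replicates. The labels name the tissue as tail amputation stump in all 3 groups, the pool size at 0 HPA and the genotype were not given in the sources used here, and such a tip holds axial muscle beside skin, notochord, spinal cord, vessels and mesenchyme.

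A sarcomere slides myosin thick filaments along actin thin filaments. Tropomyosin and the troponin complex cover the thin filament until calcium binds troponin C, nebulin and alpha-actinin hold the thin filament at the Z-disc, and titin spans from the Z-disc to the M-line, where myomesins cross-link the thick filaments. Calcium leaves the sarcoplasmic reticulum through ryanodine receptors, which in skeletal muscle sit opposite the voltage sensor of the surface membrane. The non-muscle myosins, light chains, tropomyosins and alpha-actinins do related work at the cell cortex and in stress fibres.

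The study chose 100 genes for its Nanostring probe set, and 99 target sequences of 100 bases were read here. Among them were those of 2 members, *Neb* and *Ttn*. Their target sequences are shown because they are the only stretches of member transcripts given as letters in the sources used here, and because both genes stood out in muscle-like nuclei. Each target is 100 bases long, with a GC content of 45% in *Neb* and 42% in *Ttn*, and in each 1 of the forward reading frames is free of stop codons. No stretch is set in capitals, since no motif was searched.
*Neb*: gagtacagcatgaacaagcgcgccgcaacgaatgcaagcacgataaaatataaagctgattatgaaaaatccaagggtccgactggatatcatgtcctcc
*Ttn*: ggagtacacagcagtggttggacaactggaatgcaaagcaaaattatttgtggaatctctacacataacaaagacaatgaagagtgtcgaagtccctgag

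The libraries differed in depth. Rom 6 HPA held 44735 nuclei with 58827729 UMIs, Cont 6 HPA 56936 nuclei with 105765943 UMIs and 0 HPA 31522 nuclei with 42537606 UMIs, and the median nucleus had 1079, 1623 and 1019 UMIs in that order. Barcodes shared between libraries numbered 736 for Rom 6 HPA and Cont 6 HPA, 469 for Rom 6 HPA and 0 HPA, and 526 for Cont 6 HPA and 0 HPA. The study's text gives the nuclei numbers of the 6 HPA libraries the other way round, and the groups here follow the sample labels. Levels are given as CPM, the UMIs of a symbol scaled to the total UMIs of the library or group of nuclei. Brackets hold 95% intervals, exact Poisson for levels and exact conditional for ratios, and every interval speaks for counting error alone. No test between conditions was possible, as each condition is 1 library, and a ratio past 1.5-fold is a description of these libraries. Over all nuclei of a library, fewer muscle nuclei and less RNA per muscle nucleus cannot be told apart.

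Over all nuclei, the members moved little as a list. In Rom 6 HPA over Cont 6 HPA, 3 of 45 members were higher by more than 1.5-fold and 2 were lower, where 9.45% and 3.7% of all symbols were. The median log2 ratio was 0.03 for the members and 0.03 for all symbols. In Cont 6 HPA over 0 HPA, 1 member was higher and 9 were lower, beside 3.82% and 21.9% of all symbols, with medians of −0.18 and −0.23. In Rom 6 HPA over 0 HPA, 1 member was higher and 4 were lower, beside 5.8% and 13.6%, with medians of −0.13 and −0.19. Among the 37 members with at least 200 UMIs, 1 was higher and 0 were lower in Rom 6 HPA over Cont 6 HPA, beside 5.36% and 1.38% of all symbols of that depth. In Cont 6 HPA over 0 HPA 1 was higher and 4 were lower, beside 2.48% and 15.8%, and in Rom 6 HPA over 0 HPA 1 was higher and 0 were lower, beside 3.78% and 8.23%. The 3 comparisons share their libraries and are given side by side. Scaling by median of ratios size factors shifts every log2 ratio by −0.11, 0.35 and 0.24 in the same order, so directions below are read beside those shifts. Summed over the 36 striated members the level was 6258 CPM in Rom 6 HPA, 6085 CPM in Cont 6 HPA and 5714 CPM in 0 HPA.

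**Figure D1:**
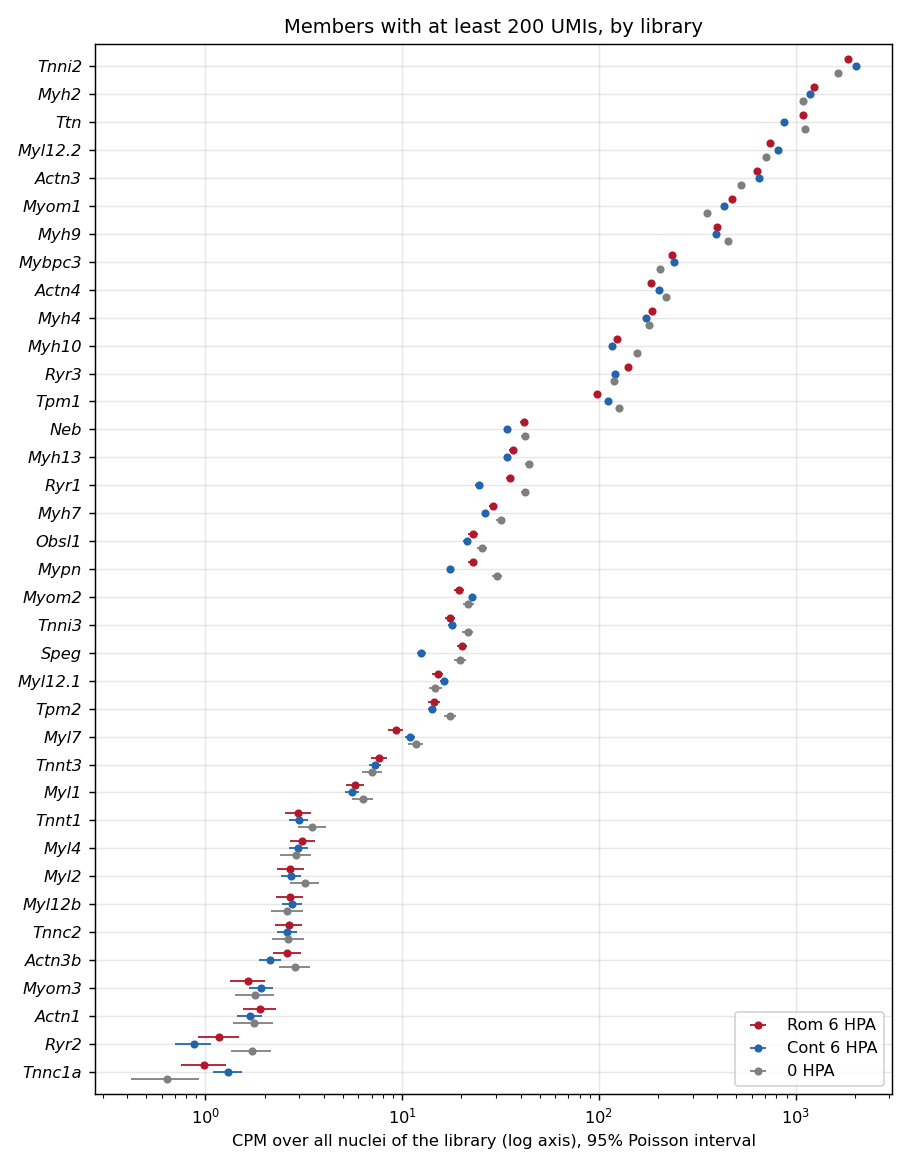
CPM over all nuclei (log axis) of the 37 members with at least 200 UMIs, in Rom 6 HPA (red), Cont 6 HPA (blue) and 0 HPA (grey); bars are 95% Poisson intervals. Most members sit at nearly the same level in the 3 libraries, while *Speg*, *Ryr1*, *Mypn*, *Ttn* and *Neb* are lowest in Cont 6 HPA.

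The ryanodine receptors parted from each other. *Ryr1*, the skeletal muscle calcium release channel, had 35.2 CPM in Rom 6 HPA, 24.5 CPM in Cont 6 HPA and 42.2 CPM in 0 HPA. The log2 ratio was 0.52 [0.44 to 0.60] for Rom 6 HPA over Cont 6 HPA and −0.78 [−0.87 to −0.70] for Cont 6 HPA over 0 HPA. Cont 6 HPA was the lowest library, and the 4 *Ryr1* features with at least 200 UMIs each had the same pair of signs. *Ryr3*, a receptor found in many tissues and in the muscle of non-mammalian vertebrates, had 141 CPM in Rom 6 HPA, 120.2 CPM in Cont 6 HPA and 119.5 CPM in 0 HPA. In this sum the higher library was Rom 6 HPA and the others were level. Its 3 features with at least 200 UMIs were all higher in Rom 6 HPA than in Cont 6 HPA. In Cont 6 HPA over 0 HPA they ranged from −0.42 to 0.07, and the summed ratio of 0.01 became 0.35 under the size factors. *Ryr2*, the cardiac and neuronal receptor, had 69 UMIs in Rom 6 HPA, 92 in Cont 6 HPA and 73 in 0 HPA (1.17, 0.870 and 1.72 CPM). Its ratio of Cont 6 HPA over 0 HPA was −0.98 [−1.44 to −0.52], while the interval of Rom 6 HPA over Cont 6 HPA, −0.04 to 0.90, held 0.

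Among the giant, M-line and myosin-binding proteins, *Speg* and *Mypn* went with *Ryr1*. *Speg*, a kinase of the triad where the calcium channels lie, had 20.1 CPM in Rom 6 HPA, 12.5 CPM in Cont 6 HPA and 19.6 CPM in 0 HPA. It was the only member with at least 200 UMIs past 1.5-fold in Rom 6 HPA over Cont 6 HPA (0.68 [0.57 to 0.79]), a call lost under the size factors (0.57), and its ratio of Cont 6 HPA over 0 HPA was −0.65 [−0.77 to −0.52]. *Mypn*, myopalladin of the Z-disc, had 22.9 CPM in Rom 6 HPA, 17.6 CPM in Cont 6 HPA and 30.3 CPM in 0 HPA, with ratios of 0.38 and −0.78. *Ryr1*, *Mypn*, *Speg* and *Ryr2* were the 4 members of that depth lower by more than 1.5-fold in Cont 6 HPA than in 0 HPA, and under the size factors, at −0.44, −0.44, −0.30 and −0.63, only *Ryr2* was still past it.

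*Ttn* (titin) and *Neb* (nebulin), the proteins that act as molecular rulers of the filaments, followed at smaller size. *Ttn* had 1091 CPM in Rom 6 HPA, 874 CPM in Cont 6 HPA and 1111 CPM in 0 HPA. *Neb* had 41.6 CPM in Rom 6 HPA, 33.9 CPM in Cont 6 HPA and 42.2 CPM in 0 HPA. For both, Rom 6 HPA and 0 HPA lay together above Cont 6 HPA: the ratios of Rom 6 HPA over Cont 6 HPA were 0.32 [0.31 to 0.33] and 0.29 [0.22 to 0.37], and those of Cont 6 HPA over 0 HPA were −0.35 and −0.32, which became 0.00 and 0.03 under the size factors. All 23 *Ttn* features with at least 200 UMIs were lower in Cont 6 HPA than in 0 HPA and 22 of them were higher in Rom 6 HPA than in Cont 6 HPA, and the 5 such features of *Neb* had both signs alike.

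The other members of this class had the M-line and thick filament proteins at more even levels. *Myom1*, the main myomesin, had 473 CPM in Rom 6 HPA, 435 CPM in Cont 6 HPA and 357 CPM in 0 HPA, with 0 HPA the lowest. *Mybpc3*, a myosin-binding protein C, had 234 CPM in Rom 6 HPA, 241 CPM in Cont 6 HPA and 205 CPM in 0 HPA. *Obsl1*, a cytoskeletal linker, had 23.0 CPM in Rom 6 HPA, 21.3 CPM in Cont 6 HPA and 25.6 CPM in 0 HPA. None of the 3 passed 1.5-fold. *Myom2* was the reverse of *Ttn* between the 6 HPA libraries, with 19.5 CPM in Rom 6 HPA and 22.7 CPM in Cont 6 HPA (−0.22 [−0.32 to −0.12]), and 21.7 CPM in 0 HPA. *Myom3* had 1.65 CPM in Rom 6 HPA, 1.92 CPM in Cont 6 HPA and 1.79 CPM in 0 HPA, with intervals that held 0.

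The skeletal myosin heavy chains, the motors of the thick filament, differed by less than 1.5-fold wherever they were well counted. *Myh2* had 1238 CPM in Rom 6 HPA, 1186 CPM in Cont 6 HPA and 1096 CPM in 0 HPA. *Myh4*, with 26 features the most divided member but *Neb*, had 186 CPM in Rom 6 HPA, 173 CPM in Cont 6 HPA and 180 CPM in 0 HPA, and its 10 features with at least 200 UMIs had mixed signs in both comparisons, with log2 ratios of Cont 6 HPA over 0 HPA between −0.49 and 1.49. *Myh13* had 36.5 CPM in Rom 6 HPA, 34.3 CPM in Cont 6 HPA and 44.2 CPM in 0 HPA. *Myh7*, named for the slow and cardiac form, had 29.0 CPM in Rom 6 HPA, 26.3 CPM in Cont 6 HPA and 31.6 CPM in 0 HPA. *Myh13* and *Myh7* were thus highest in 0 HPA, though under the size factors the sign of Cont 6 HPA over 0 HPA turned for *Myh7* and *Myh4*, and that of Rom 6 HPA over Cont 6 HPA for *Myh2* and *Myh13*. Near-identical heavy chain genes share reads, and the assignment of UMIs among these symbols is uncertain. *Myh1*, *Myh3* and *Myh8*, the last 2 the embryonic and perinatal chains of mammals, held 57 to 82 UMIs each and were lower by more than 1.5-fold in Cont 6 HPA than in 0 HPA, at −1.48, −1.67 and −1.76.

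The striated light chains with at least 200 UMIs did not pass 1.5-fold. *Myl7* had 9.28 CPM in Rom 6 HPA, 10.99 CPM in Cont 6 HPA and 11.8 CPM in 0 HPA, lower in Rom 6 HPA than in Cont 6 HPA (−0.24 [−0.39 to −0.10]). *Myl1*, the alkali light chain of fast muscle, had 5.76 CPM in Rom 6 HPA, 5.57 CPM in Cont 6 HPA and 6.32 CPM in 0 HPA. *Myl4* and *Myl2* had 3.11 and 2.70 CPM in Rom 6 HPA, 2.97 and 2.73 CPM in Cont 6 HPA, and 2.89 and 3.20 CPM in 0 HPA. The intervals of *Myl1*, *Myl4* and *Myl2* held 0 in both comparisons, and *Myl10* with 64 UMIs was past 1.5-fold in both, at 1.26 and −0.83.

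Troponins and tropomyosins, the calcium switch of the thin filament, held the most counted member and one of the least. *Tnni2*, the fast troponin I that inhibits the filament at rest, had 1855 CPM in Rom 6 HPA, 2025 CPM in Cont 6 HPA and 1646 CPM in 0 HPA (−0.13 and 0.30). Cont 6 HPA was its highest library, the opposite of *Ttn* and *Ryr1*. *Tnnc1a* had 58 UMIs in Rom 6 HPA, 137 in Cont 6 HPA and 27 in 0 HPA (0.986, 1.30 and 0.635 CPM), and was the single member above 1.5-fold in Cont 6 HPA over 0 HPA (1.03 [0.43 to 1.68]). *Tpm1*, the main alpha tropomyosin, had 98.3 CPM in Rom 6 HPA, 112 CPM in Cont 6 HPA and 126 CPM in 0 HPA, lower in Rom 6 HPA than in Cont 6 HPA under both scalings. Of its 3 features with at least 200 UMIs, 2 were higher in Rom 6 HPA than in Cont 6 HPA, and the 3 ranged from −0.20 to 0.63. The best counted feature held 96.1% of the *Tpm1* UMIs.

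The remaining switch genes with at least 200 UMIs did not pass 1.5-fold. *Tnni3* had 17.5 CPM in Rom 6 HPA, 17.9 CPM in Cont 6 HPA and 21.5 CPM in 0 HPA, and *Tpm2* had 14.5 CPM in Rom 6 HPA, 14.2 CPM in Cont 6 HPA and 17.6 CPM in 0 HPA. Both were highest in 0 HPA before the shift of the size factors and not after it. *Tnnt3* and *Tnnt1*, which anchor the troponin complex to tropomyosin, had 7.65 and 2.96 CPM in Rom 6 HPA, 7.28 and 2.99 CPM in Cont 6 HPA, and 7.03 and 3.48 CPM in 0 HPA. *Tnnc2*, the fast calcium sensor, had 2.65 CPM in Rom 6 HPA, 2.61 CPM in Cont 6 HPA and 2.63 CPM in 0 HPA. The intervals of these 3 genes held 0 in all comparisons. *Tpm3* and *Tnni1*, the slow tropomyosin and troponin I of mammals, held only 189 and 24 UMIs. In the counts here *Tpm3* is placed with the non-muscle members. *Tnni1* was past 1.5-fold in Cont 6 HPA over 0 HPA, at −0.80, with an interval from −2.34 to 0.83. In the RefSeq assembly UKY_AmexF1_1, in which 32 of the 45 symbols were found, *Tnnt1* lay directly beside *Tnni3*, 2 protein-coding genes separated *Tnnt3* from *Tnni2*, and *Myl12b* was a direct neighbour of *Myom1*. The neighbours *Tnnt3* and *Tnni2* had ratios of 0.07 [−0.10 to 0.24] and −0.13 [−0.14 to −0.12] for Rom 6 HPA over Cont 6 HPA.

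The alpha-actinins of the Z-disc were *Actn3*, with 639 CPM in Rom 6 HPA, 651 CPM in Cont 6 HPA and 529 CPM in 0 HPA, and *Actn3b*, with 2.60, 2.14 and 2.85 CPM in that order. *Actn3* was lowest in 0 HPA and *Actn3b* in Cont 6 HPA, and the *Actn3b* intervals held 0 for Rom 6 HPA over Cont 6 HPA, −0.02 to 0.59, and for Rom 6 HPA over 0 HPA, −0.48 to 0.23. *Actn2*, the form shared by heart and skeletal muscle in mammals, held 23 UMIs in Rom 6 HPA, 69 in Cont 6 HPA and 20 in 0 HPA (−0.74 [−1.49 to −0.04] for Rom 6 HPA over Cont 6 HPA).

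To find the nuclei that held these transcripts, all libraries were clustered jointly without the member symbols, and the clusters were named by fixed markers. Clusters whose median depth passed that of their libraries by a fixed margin are called deep, and the remainder, 84.1% of nuclei in Rom 6 HPA, 89.2% in Cont 6 HPA and 78.0% in 0 HPA, are called shallow nuclei and carry no cell type name. Muscle-like nuclei were 987 (2.21% [2.07 to 2.35]) in Rom 6 HPA, 751 (1.32% [1.23 to 1.42]) in Cont 6 HPA and 801 (2.54% [2.37 to 2.72]) in 0 HPA. They held 5.04%, 3.21% and 5.99% of the UMIs of their library. Among deep nuclei alone the shares were 13.9% in Rom 6 HPA, 12.17% in Cont 6 HPA and 11.6% in 0 HPA, so Cont 6 HPA was lowest among all nuclei and not among deep nuclei. The median depth of muscle-like nuclei was 2546 UMIs in Rom 6 HPA, 3901 in Cont 6 HPA and 2710 in 0 HPA.

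The label muscle-like rests on *Dmd* (dystrophin), with 8925 of 9851 UMIs in these nuclei in Rom 6 HPA, 10263 of 11204 in Cont 6 HPA and 6798 of 7264 in 0 HPA. It rests also, less sharply, on *Xirp2*, which binds actin at muscle junctions. *Xirp2* had 1056 of 2194 UMIs in these nuclei in Rom 6 HPA, 1619 of 3863 in Cont 6 HPA and 1235 of 2080 in 0 HPA. *Ckm*, the muscle creatine kinase, behaved otherwise, with only 20980 of 298739 UMIs in muscle-like nuclei in Rom 6 HPA, 23256 of 479853 in Cont 6 HPA and 16005 of 156517 in 0 HPA. The markers *Acta1*, *Pygm*, *Klhl41*, *Unc45b* and *Myog* also lay mostly outside muscle-like nuclei in each library. In Rom 6 HPA these nuclei held 14121 of 165246, 2552 of 27702, 642 of 6298, 203 of 1027 and 20 of 70 of their UMIs in that order. *Ldb3* had 27 of 39 there. Of the heart muscle markers, *Nppa* and *Tbx5* had no UMI in any library, *Nkx2-5* had 87 UMIs in Rom 6 HPA, 35 in Cont 6 HPA and 10 in 0 HPA (1, 0 and 1 in muscle-like nuclei), and *Tbx20* had 8, 7 and 1 (5, 2 and 0). Of the smooth muscle and pericyte markers, *Tagln* and *Notch3* had no UMI, and *Smtn* had 481, 753 and 424 (25, 22 and 15 in muscle-like nuclei). A gene such as *Capzb*, used by most cells, is also at 0 in these files, so a 0 does not show absence. *Acta2*, the smooth muscle actin, had 0 UMIs in muscle-like nuclei, whereas *Abcc9* of the same list had 88 in Rom 6 HPA, 75 in Cont 6 HPA and 60 in 0 HPA.

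The members fell into groups by how strictly they stayed in muscle-like nuclei. Set against all other nuclei of the same library, 21 of 45 members were more than 2-fold higher in muscle-like nuclei in Rom 6 HPA, 23 in Cont 6 HPA and 22 in 0 HPA, where 16.7%, 19.5% and 13.9% of all symbols were. Lower by more than 2-fold were 5 members in each library, beside 13.7%, 13.4% and 14.5% of all symbols. Of the 36 striated members, 21, 22 and 21 were higher. *Speg* had 311, 296 and 258 CPM in muscle-like nuclei of Rom 6 HPA, Cont 6 HPA and 0 HPA, against 4.67, 3.15 and 4.43 CPM in other nuclei, a fold of 66.5, 94.1 and 58.4. *Mypn* was 56.9-, 78.8- and 82.2-fold higher and *Ryr1* 39.8-, 52.6- and 48.6-fold higher in the same order. These 3 genes had most of their UMIs in muscle-like nuclei, 63.6% to 84.0% by gene and library.

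A middle group leaned to muscle-like nuclei. *Ttn* had 8866 CPM in muscle-like nuclei and 678 CPM in other nuclei of Rom 6 HPA, 9632 and 584 CPM in Cont 6 HPA, and 9610 and 570 CPM in 0 HPA. *Neb* was 11.9-, 15.3- and 14.6-fold higher in muscle-like nuclei, *Myh13* 11.7-, 17.3- and 15.3-fold, *Myh4* 9.41-, 13.6- and 13.6-fold, *Myh7* 6.85-, 9.81- and 9.05-fold and *Ryr3* 4.91-, 5.86- and 5.95-fold. With the other nuclei taken as the base, each of these 6 folds was smallest in Rom 6 HPA. The 3 *Ryr3* features with at least 200 UMIs had from 4.33% to 44.6% of their UMIs in muscle-like nuclei. The fold of *Ryr3* thus sums unlike features.

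The most counted thin and thick filament genes were spread over all groups of nuclei. *Tnni2* was 1.24-fold higher in muscle-like than in other nuclei in Rom 6 HPA, 1.31-fold in Cont 6 HPA and 1.89-fold in 0 HPA, and only 6.16%, 4.16% and 10.7% of its UMIs lay in muscle-like nuclei. *Myh2* was 2.02-, 2.55- and 2.36-fold higher and *Actn3* 2.04-, 2.24- and 3.05-fold. With every nucleus thinned to 950 UMIs, which left out 0.425% of nuclei in Rom 6 HPA, 0.177% in Cont 6 HPA and 8.88% in 0 HPA, *Tnni2* was seen in 82.6% of muscle-like nuclei, 86.3% of shallow nuclei and 66.1% of erythrocyte-like nuclei of Rom 6 HPA. The unthinned shares were 97.6%, 89.4% and 88.5%. Erythrocytes have no sarcomere, and their share is given for comparison within the same library. It is not a common base for all nuclei, as *Tnni2* differed among groups outside muscle-like nuclei. In Rom 6 HPA it had 768 CPM in surface epithelial-like and 1608 CPM in neuron-like nuclei. Where these transcripts came from was not tested. *Ryr1* was seen in 32.0% of muscle-like, 1.07% of shallow and 1.72% of erythrocyte-like nuclei after thinning, and in 59.6%, 1.24% and 2.20% before it.

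Outside muscle-like nuclei, *Myh2* and *Ttn* stood to *Tnni2* in narrower proportions than *Ryr1* did. Per UMI of *Tnni2*, the 11 groups of nuclei that are not muscle-like held 0.486 to 0.650 UMIs of *Myh2* in Rom 6 HPA, 0.479 to 0.631 in Cont 6 HPA and 0.544 to 0.661 in 0 HPA. Muscle-like nuclei held 1.05, 1.10 and 0.809. For *Ttn* the 11 groups held 0.305 to 0.452, 0.246 to 0.402 and 0.334 to 0.427 UMIs per UMI of *Tnni2*, and muscle-like nuclei 3.91, 3.67 and 3.25. For *Ryr1* the 11 groups held 0.00540 to 0.0225, 0.00395 to 0.0229 and 0.00527 to 0.0306. In Cont 6 HPA the low end rested on 5 *Ryr1* UMIs, in deep nuclei without a name [0.00128 to 0.00924]. The high end rested on 12, in notochord-like nuclei [0.0118 to 0.0404]. Counting error thus widens the *Ryr1* ranges, and the widths were not tested against each other. Since erythrocyte-like nuclei held *Tnni2*, *Myh2* and *Ttn* too, levels of these 3 genes outside muscle-like nuclei are not read as expression by those cells.

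**Figure D2:**
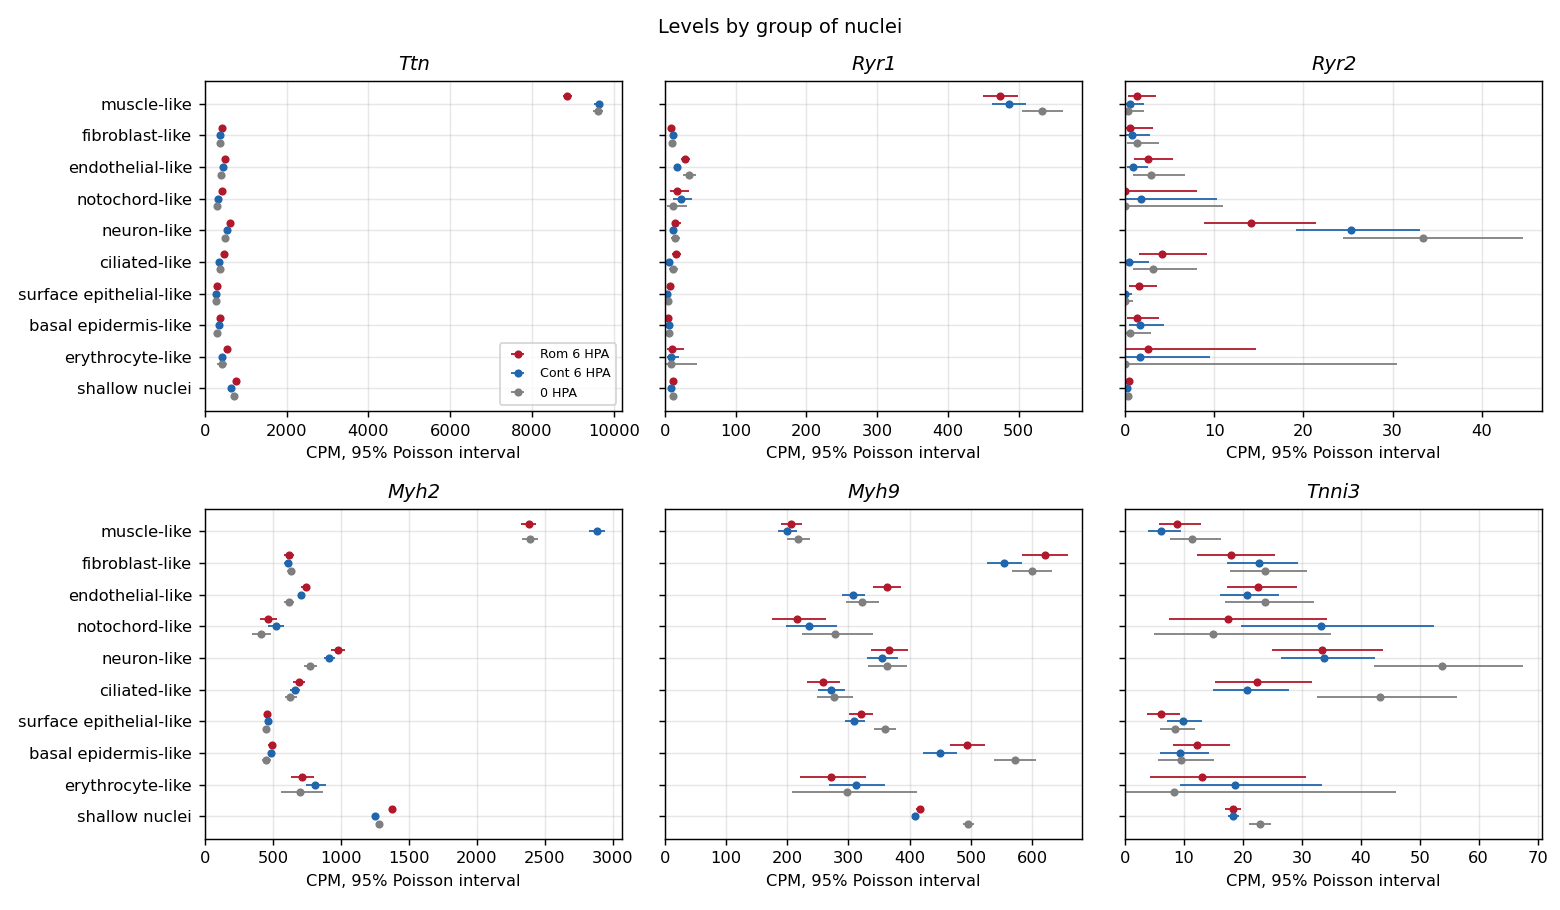
CPM of 6 members by group of nuclei and library, Rom 6 HPA (red), Cont 6 HPA (blue) and 0 HPA (grey), with 95% Poisson intervals. *Ttn* and *Ryr1* stand apart in muscle-like nuclei, *Ryr2* is highest in neuron-like nuclei, *Myh9* in fibroblast-like nuclei, and *Myh2* is at 409.8 CPM or more in every group shown.

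Some members that are striated by family were led by other nuclei. *Ryr2* had 22 UMIs in neuron-like nuclei of Rom 6 HPA, 55 in Cont 6 HPA and 46 in 0 HPA (14.1 [8.85 to 21.4], 25.4 [19.1 to 33.0] and 33.4 [24.5 to 44.6] CPM), and 4, 2 and 1 UMIs in muscle-like nuclei. *Tnni3* had 33.4, 33.7 and 53.8 CPM in neuron-like nuclei, against 8.77, 6.19 and 11.4 CPM in muscle-like nuclei. Next highest were endothelial-like nuclei in Rom 6 HPA (22.64 CPM), notochord-like nuclei in Cont 6 HPA (33.23 CPM, 18 UMIs) and ciliated-like nuclei in 0 HPA (43.25 CPM). *Tnni3* is therefore not read as particular to neuron-like nuclei. The larger neuron-like sub-cluster, of 2122 nuclei, had 4 of 10 detected neuron markers over 2-fold. Its leading genes also held *Apobr* of the myeloid list and *Egfl7* of the endothelial list, so its name is not a firm one. The smaller, of 560 nuclei, had 12 of 12, beside 7 ciliated markers over 2-fold. *Tnnc1a* had 7, 4 and 7 UMIs in notochord-like nuclei (15.3, 7.38 and 20.9 CPM), and 39, 119 and 16 UMIs in shallow nuclei, where its ratio of Cont 6 HPA over 0 HPA was 1.18 [0.43 to 2.04]. *Myl7* was lower in muscle-like than in other nuclei in each library. Outside muscle-like nuclei *Ryr1* was next highest in endothelial-like nuclei in Rom 6 HPA (28.3 CPM, 75 UMIs) and in 0 HPA (34.1 CPM, 59 UMIs), and had 17.7 CPM with 60 UMIs in those of Cont 6 HPA. In Cont 6 HPA notochord-like nuclei were next highest, at 22.15 CPM with 12 UMIs. The 2 endothelial-like sub-clusters had 6 and 7 endothelial markers over 2-fold beside 4 and 5 fibroblast markers, so that name is not a firm one.

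Of the 9 non-muscle members, *Myh9*, *Actn4* and *Myl12.2* were lower in muscle-like than in other nuclei, *Actn1* was 1.46-fold higher in Rom 6 HPA, 5.63-fold in Cont 6 HPA and 4.60-fold in 0 HPA (8, 28 and 17 UMIs in muscle-like nuclei), and *Myh10*, *Myl12.1*, *Myl12b* and *Tpm3* were within 2-fold. *Myh9*, the heavy chain of non-muscle myosin IIA, had 400.0 CPM over all nuclei in Rom 6 HPA, 393 CPM in Cont 6 HPA and 452 CPM in 0 HPA. Fibroblast-like nuclei held 621, 554 and 599 CPM, basal epidermis-like nuclei 494, 449 and 572 CPM and muscle-like nuclei 206, 199.9 and 218 CPM. *Myh10*, of myosin IIB, had 124 CPM in Rom 6 HPA, 116 CPM in Cont 6 HPA and 156 CPM in 0 HPA over all nuclei and was well counted in surface epithelial-like nuclei, at 202, 205 and 234 CPM. Their levels over all nuclei were highest in 0 HPA, and the sign of Cont 6 HPA over 0 HPA turned under the size factors for *Myh9* and not for *Myh10*.

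*Actn4*, the alpha-actinin of the cortex, had 184 CPM in Rom 6 HPA, 202 CPM in Cont 6 HPA and 221 CPM in 0 HPA. *Myl12.2* and *Myl12.1*, regulatory light chains of non-muscle myosin, had 742 and 15.2 CPM in Rom 6 HPA, 814 and 16.4 CPM in Cont 6 HPA, and 711 and 14.8 CPM in 0 HPA. *Actn4* and *Myl12.2* were lower in muscle-like than in other nuclei in every library, at a fold of 0.458 to 0.496. *Myl12b* and *Actn1* had 2.69 and 1.89 CPM in Rom 6 HPA, 2.76 and 1.68 CPM in Cont 6 HPA, and 2.61 and 1.76 CPM in 0 HPA, with intervals that held 0. *Myh9b* held 26 UMIs. None of the 9 non-muscle members passed 1.5-fold in Rom 6 HPA over Cont 6 HPA or in Cont 6 HPA over 0 HPA, and 1, *Tpm3*, was lower past it in Rom 6 HPA over 0 HPA (−0.70 [−1.33 to −0.06]).

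In both comparisons with Cont 6 HPA, the ratios over all nuclei varied with the share of a member's UMIs in muscle-like nuclei. The 3 members with over 60% of their UMIs there, *Ryr1*, *Mypn* and *Speg*, had a median log2 ratio of 0.52 for Rom 6 HPA over Cont 6 HPA and −0.78 for Cont 6 HPA over 0 HPA. The 6 members with 25% to 60% had medians of 0.12 and −0.29, the 7 with 10% to 25% medians of 0.11 and −0.07, and the 21 with under 10% medians of −0.03 and 0.04. Over the 37 members the Spearman correlation of the share with the ratio was 0.65 for Rom 6 HPA over Cont 6 HPA, −0.35 for Cont 6 HPA over 0 HPA and 0.07 for Rom 6 HPA over 0 HPA. This is a description across genes that share the same libraries, nuclei and depth. The share and the ratio are computed from the same UMIs, so they are linked in part by construction. Muscle-like nuclei held 5.04% of all UMIs in Rom 6 HPA, 3.21% in Cont 6 HPA and 5.99% in 0 HPA. A cause of the relation was not tested.

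**Figure D3:**
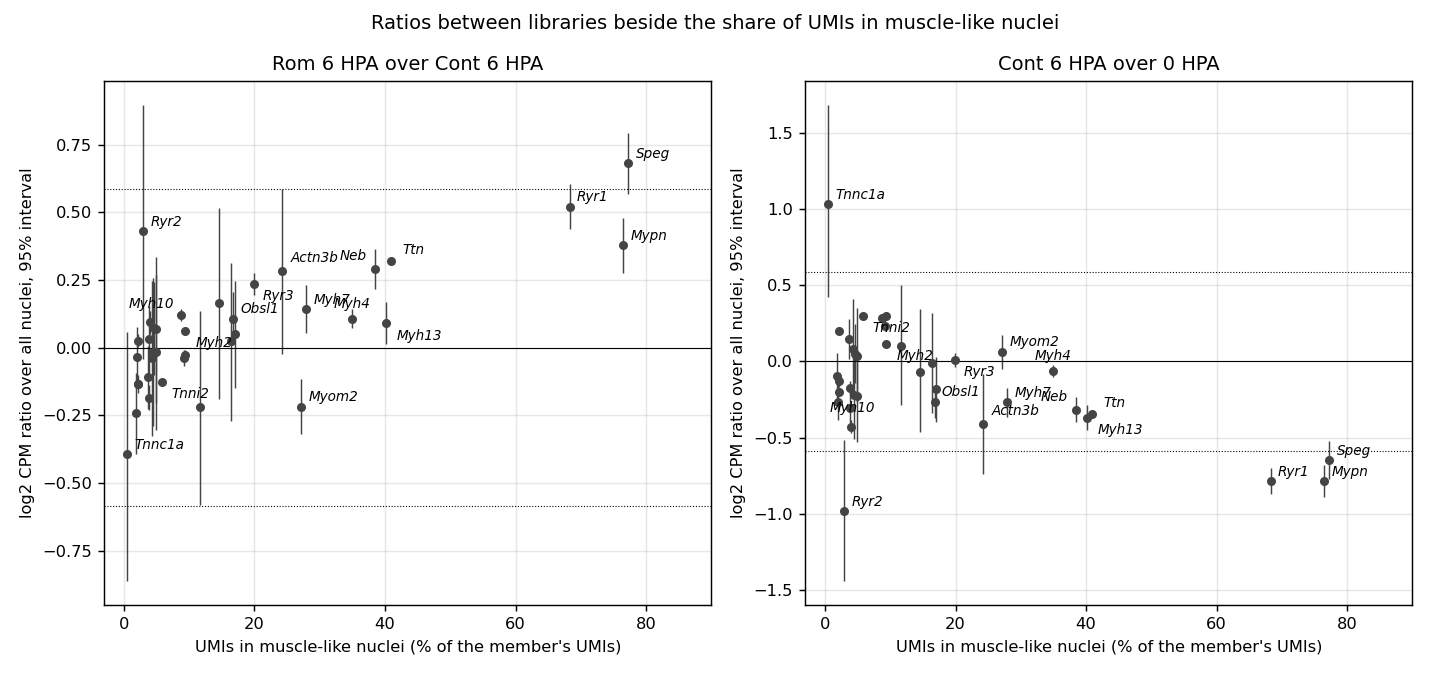
Log2 CPM ratio over all nuclei (vertical axis, 95% interval) against the percent of a member's UMIs in muscle-like nuclei, the 3 libraries together (horizontal axis), for 37 members; dotted lines mark 1.5-fold. *Ryr1*, *Mypn* and *Speg* lie at the far right, at 0.38 to 0.68 on the left panel and −0.78 to −0.65 on the right panel; at low shares *Ryr2* (0.43 and −0.98) and *Tnnc1a* (−0.39 and 1.03) lie far from the other members.

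Within muscle-like nuclei the differences of *Ryr1*, *Mypn*, *Speg*, *Ttn* and *Neb* were smaller or turned. Of the 37 members with at least 20 UMIs there, 0 were more than 1.5-fold higher in Rom 6 HPA than in Cont 6 HPA and 3 were lower, *Actn1*, *Myh1* and *Myh8*, beside 11.2% and 10.7% of the symbols with as many UMIs. The median log2 ratio of the members was −0.18 and that of all symbols −0.03. Of the 37 ratios 7 were positive, beside 46.9% of those of all symbols. In Cont 6 HPA over 0 HPA, 2 members were higher and 4 were lower, beside 7.95% and 12.8%, with medians of −0.01 and −0.11. In Rom 6 HPA over 0 HPA, 1 member was higher, *Myom3*, and 7 were lower, *Tpm1*, *Myom2*, *Tnnt1*, *Actn3b*, *Actn1*, *Myh1* and *Myh8*, beside 9.8% and 16.6%, with medians of −0.22 and −0.13. *Ryr1* had 474 CPM in Rom 6 HPA, 486 CPM in Cont 6 HPA and 533 CPM in 0 HPA within these nuclei, at −0.04 [−0.14 to 0.07] and −0.13 [−0.24 to −0.03]. *Speg* had ratios of 0.07 [−0.06 to 0.20] and 0.20 [0.05 to 0.34], and *Mypn* of −0.22 [−0.34 to −0.10] and −0.10 [−0.22 to 0.02]. *Ttn*, at −0.12 [−0.14 to −0.10] and 0.00 [−0.02 to 0.03], and *Neb*, at −0.16 [−0.28 to −0.04] and 0.06 [−0.06 to 0.19], were slightly lower in Rom 6 HPA than in Cont 6 HPA.

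Several myosin heavy chains, *Myom2* and *Tpm1* differed between libraries within muscle-like nuclei. *Myh4* had 1229 CPM in Rom 6 HPA, 1669 CPM in Cont 6 HPA and 1398 CPM in 0 HPA, a log2 ratio of −0.44 [−0.50 to −0.38] for Rom 6 HPA over Cont 6 HPA and 0.26 [0.19 to 0.32] for Cont 6 HPA over 0 HPA. *Myh13* had 277 CPM in Rom 6 HPA, 389 CPM in Cont 6 HPA and 365 CPM in 0 HPA (−0.49 [−0.62 to −0.36]), and *Myom2* had 102 CPM in Rom 6 HPA, 153 CPM in Cont 6 HPA and 154 CPM in 0 HPA (−0.58 [−0.79 to −0.38]). *Myh7* and *Myh2* were lower in Rom 6 HPA than in Cont 6 HPA as well, at −0.39 and −0.28. None of these 5 reached 1.5-fold in Rom 6 HPA over Cont 6 HPA, whereas *Myom2* was past it in Rom 6 HPA over 0 HPA (−0.59 [−0.81 to −0.37]). *Tnni2* had 2268 CPM in Rom 6 HPA, 2627 CPM in Cont 6 HPA and 2953 CPM in 0 HPA, with Rom 6 HPA the lowest library. Other nuclei held 1833, 2006 and 1563 CPM of *Tnni2* in that order. How much of the *Tnni2* in muscle-like nuclei is made by them was not tested. *Tpm1* had 75.6 CPM in Rom 6 HPA, 94.6 CPM in Cont 6 HPA and 133 CPM in 0 HPA, with ratios of −0.33 and −0.49, and was past 1.5-fold in Rom 6 HPA over 0 HPA (−0.81 [−1.06 to −0.57]). Against other nuclei, *Tpm1* in muscle-like nuclei was at 0.759-fold in Rom 6 HPA, 0.842-fold in Cont 6 HPA and 1.06-fold in 0 HPA. The differences of *Tpm1* between libraries are therefore not read as particular to muscle.

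**Figure D4:**
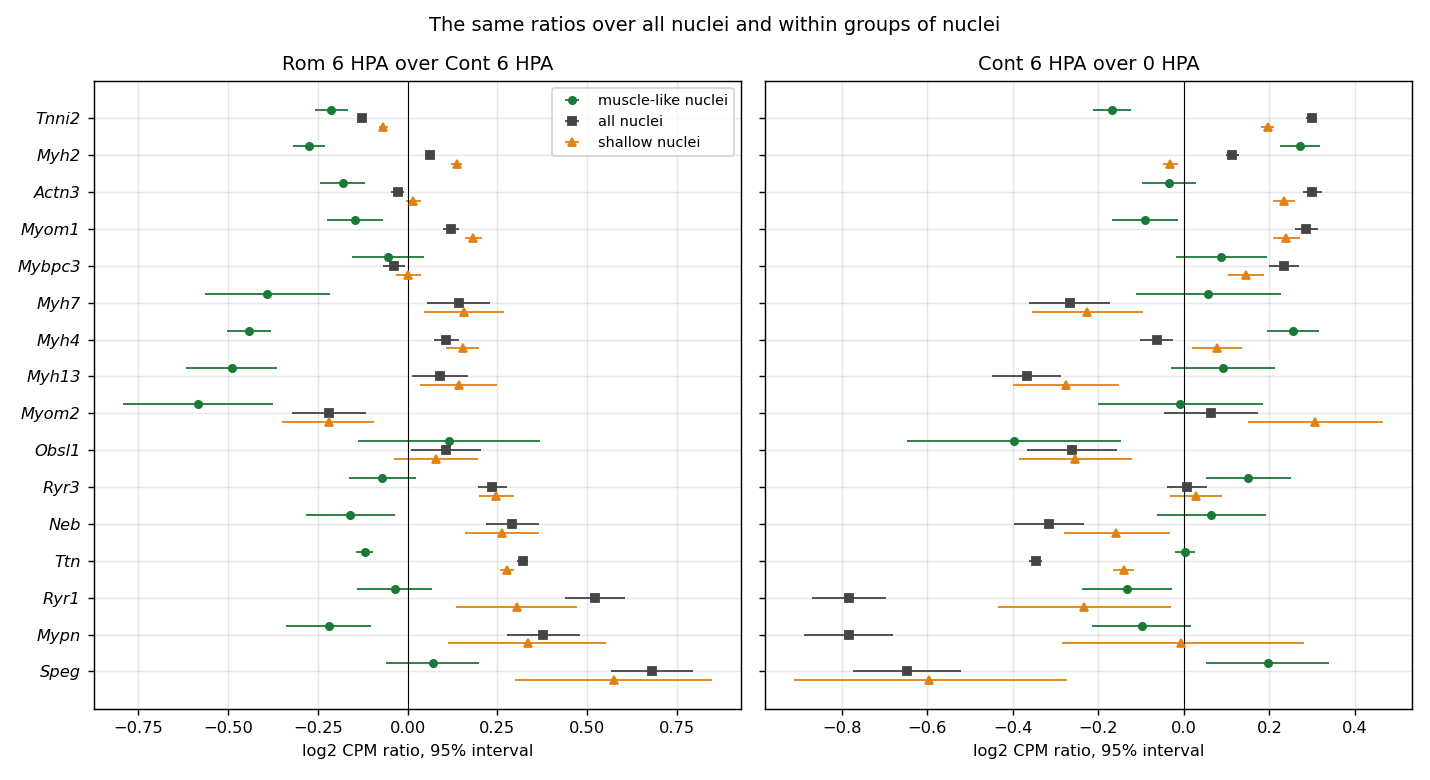
Log2 CPM ratios with 95% intervals of 16 striated members in muscle-like nuclei (green circles), all nuclei (dark squares) and shallow nuclei (orange triangles). For Rom 6 HPA over Cont 6 HPA, *Ttn* lies at −0.12 in muscle-like nuclei and at 0.32 over all nuclei, and *Myh4*, *Myh13* and *Myom2* lie furthest to the left in muscle-like nuclei.

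The muscle-like nuclei formed 3 sub-clusters, and the members divided them. The largest, of 1795 nuclei led by *Dmd*, and the deepest, of 466 nuclei with a median of 5004 UMIs, both held *Ryr1*, *Mypn* and *Speg*. The shallowest, of 278 nuclei with a median of 1794 UMIs, was led by *C10orf71* and *Cacna1s*, among others, and held 7 *Ryr1* UMIs in Rom 6 HPA, 17 in Cont 6 HPA and 5 in 0 HPA (37.9, 62.3 and 55.3 CPM), against 577, 595 and 586 CPM in the *Dmd*-led nuclei. *Mypn* had 0, 4 and 0 UMIs in the shallowest sub-cluster. *Myh2* ran the other way, with 6112, 7131 and 6540 CPM in the shallowest sub-cluster and 1294, 1511 and 1440 CPM in the *Dmd*-led nuclei.

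*Tnni2* was likewise higher in the shallowest sub-cluster, at 3985, 4593 and 5489 CPM, than in the *Dmd*-led nuclei, at 1699, 1894 and 2104 CPM. *Myh4* had 1163 CPM in Rom 6 HPA, 1676 CPM in Cont 6 HPA and 1355 CPM in 0 HPA in the *Dmd*-led nuclei, and 1398, 1798 and 1553 CPM in the deepest. Rom 6 HPA was the lowest library in both. In the shallowest sub-cluster *Myh4* had 1088 [943 to 1249] CPM in Rom 6 HPA and 1154 [1030 to 1288] CPM in Cont 6 HPA, intervals that overlap, and 797 CPM in 0 HPA. Doublets were kept and no caller was run. *Ttn* had 8876 CPM in Rom 6 HPA, 9125 CPM in Cont 6 HPA and 8736 CPM in 0 HPA in muscle-like nuclei without the deepest sub-cluster.

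**Figure D5:**
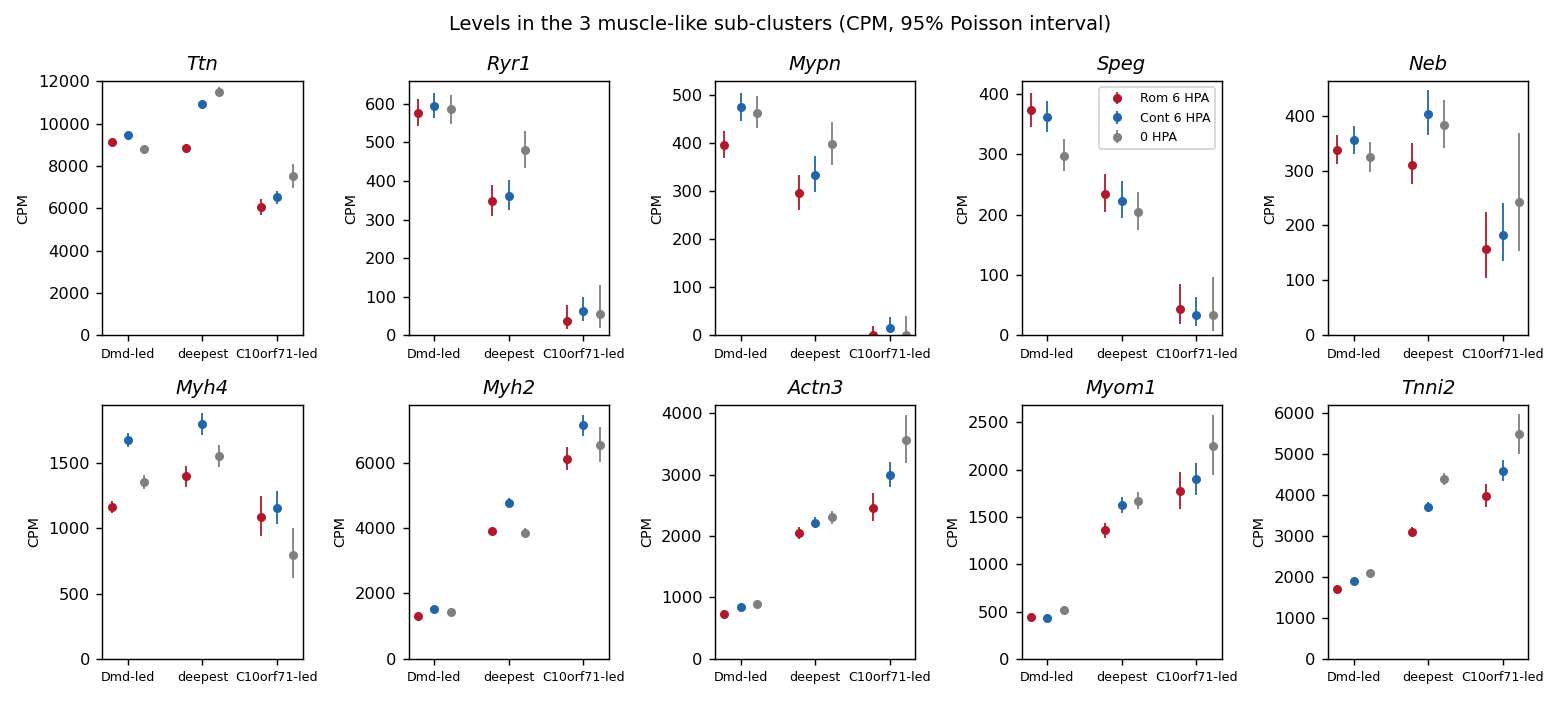
CPM of 10 members in the 3 muscle-like sub-clusters, with 95% Poisson intervals, in Rom 6 HPA (red), Cont 6 HPA (blue) and 0 HPA (grey). *Ryr1*, *Mypn* and *Speg* are lowest in the shallowest, *C10orf71*-led sub-cluster, where *Myh2*, *Actn3*, *Myom1* and *Tnni2* are highest.

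Partners outside the symbols chosen here were taken from 3 lists. Of 26 genes of the triad and of calcium handling in the sarcoplasmic reticulum, 21 had at least 20 UMIs. In Rom 6 HPA over Cont 6 HPA, 3 were higher by more than 1.5-fold and 1 was lower, beside 9.45% and 3.7% of all symbols, and the median was 0.17. In Cont 6 HPA over 0 HPA, 0 were higher and 5 were lower, beside 3.82% and 21.9%, with a median of −0.21. *Jph1*, a junctophilin that ties the reticulum to the surface membrane, had 82 UMIs in Rom 6 HPA, 93 in Cont 6 HPA and 73 in 0 HPA (0.66 and −0.96), with 67.1%, 69.9% and 79.5% of them in muscle-like nuclei. *Asph*, whose locus also encodes the triad protein junctin in mammals, had 91, 77 and 50 UMIs (1.09 and −0.69). *Itpr2*, an inositol trisphosphate receptor found in many cells, had 27.1 CPM in Rom 6 HPA, 22.03 CPM in Cont 6 HPA and 35.4 CPM in 0 HPA (0.30 and −0.68). *Cacna1s*, the voltage sensor that opens *Ryr1*, had 53.0 CPM in Rom 6 HPA, 48.8 CPM in Cont 6 HPA and 52.4 CPM in 0 HPA and did not pass 1.5-fold. Only 15.6%, 12.4% and 23.2% of its UMIs lay in muscle-like nuclei, so these levels mostly describe other nuclei.

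Of 24 sarcomere partners, 16 had at least 20 UMIs, and 1 was higher and 1 lower in Rom 6 HPA over Cont 6 HPA (all symbols 9.45% and 3.7%), and 1 was higher and 0 lower in Cont 6 HPA over 0 HPA (all symbols 3.82% and 21.9%). Medians were 0.03 and 0.00. *Alpk3*, a muscle kinase with 48.3%, 40.5% and 57.8% of its UMIs in muscle-like nuclei, had 45.0 CPM in Rom 6 HPA, 34.4 CPM in Cont 6 HPA and 45.7 CPM in 0 HPA (0.39 and −0.41), near the ratios of *Ttn*. *Mylpf*, the regulatory light chain of fast muscle, had 10877 CPM in Rom 6 HPA, 10646 CPM in Cont 6 HPA and 7934 CPM in 0 HPA, with 4.99%, 3.11% and 7.87% of its UMIs in muscle-like nuclei. Of 16 myogenic regulators only 7 had at least 20 UMIs. *Myog*, which drives myoblast differentiation, had 70 UMIs in Rom 6 HPA, 111 in Cont 6 HPA and 81 in 0 HPA (0.18 [−0.27 to 0.63] and −0.86 [−1.29 to −0.43]).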

How the data were processed

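The data are UMI counts of 3 snRNA-Seq libraries (10x Genomics v3 chemistry), grouped by the sample labels. The authors used an assembly of axolotl transcripts as the mapping reference and obtained UMI counts from Cell Ranger, version 3.0.2 per the file headers and 6.0.0 in the submitters' processing notes. The deposited counts are whole numbers per nucleus and transcript feature, not normalized, over 91648 features. Labels give the later time in days and the paper in hours, and hours are used. An assembly of transcripts can split a gene into features, so UMIs were summed by symbol.

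The members and lists were chosen with earlier results of these data known. CPM, exact intervals and folds were computed with Python 3.11.15, NumPy 2.4.6, SciPy 1.17.1 and pandas 2.3.3 and tested on simulated data. Values are given for all members with at least 200 UMIs, and members with 20 to 199 UMIs by class and range or where past 1.5-fold. List genes are named where they held at least 200 UMIs and passed 1.5-fold. *Cacna1s*, *Alpk3*, *Mylpf* and the members under 200 UMIs were named after their values were seen.

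For clustering, 3000 dispersed features without members were scaled, taken as log2(1 + x) and reduced to 10 components (20 for the deep clusters), and the graph of 15 neighbours was split with leidenalg 0.10.2 at resolution 1. A cluster was named by at least 3 markers over 2-fold and 1 among its 10 leading genes. The type also needed more markers over 2-fold than any other type, and no other type could have more among those 10 genes. A floor on relative depth was set as well. This scoring rule was set after the markers were chosen, doublets were kept, and rebuilt names may differ from the study's. Alternatives to scaling, features, depth, fold, minimum and grouping are given in the closing section.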

Additional observations from a re-analysis of the deposited data

Results flagged for a closer look

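For 12 pairs of member and comparison, the ratio within muscle-like nuclei and the ratio within shallow nuclei had opposite signs with intervals that held no 0. The difference itself was not tested. The same count is not given over all symbols, so 12 is not read as many or few. In Rom 6 HPA over Cont 6 HPA, 7 of 37 members had positive ratios in muscle-like nuclei, beside 46.9% of all symbols. In shallow nuclei 29 of 44 members had positive ratios, beside 55.07% of all symbols. Shallow nuclei carry no cell type name, and levels of *Ttn*, *Myh2* and *Tnni2* in them are not read as expression by those cells. In Rom 6 HPA over Cont 6 HPA, 8 members were lower in muscle-like nuclei and higher in shallow nuclei. The log2 ratios were −0.12 in muscle-like and 0.28 in shallow nuclei for *Ttn*, −0.16 and 0.26 for *Neb*, −0.22 and 0.33 for *Mypn*, −0.15 and 0.18 for *Myom1*, −0.28 and 0.14 for *Myh2*, −0.44 and 0.15 for *Myh4*, −0.49 and 0.14 for *Myh13*, and −0.39 and 0.16 for *Myh7*.

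In Cont 6 HPA over 0 HPA, *Myh2* (0.27 in muscle-like and −0.03 in shallow nuclei) and *Speg* (0.20 and −0.60) were higher in muscle-like nuclei and lower in shallow nuclei. *Tnni2* (−0.17 and 0.20) and *Myom1* (−0.0907 and 0.24) were the reverse. The 2 groups of nuclei come from the same libraries, and the shallow nuclei hold few *Speg* UMIs, 195 in Rom 6 HPA, 264 in Cont 6 HPA and 122 in 0 HPA. For *Myh2*, the muscle-like ratio also varies with the mix of sub-clusters. The shallowest, where *Myh2* is highest, held 273028 of 3391697 muscle-like UMIs in Cont 6 HPA and 90368 of 2546285 in 0 HPA. Without it *Myh2* had 2512 CPM in Cont 6 HPA and 2237 CPM in 0 HPA.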

How the results depend on the processing

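Counts past the fold are small and moved with the settings. The counts under size factors, at 2-fold and with no minimum are given without the share of all symbols. They describe the settings and are not read as results about the members. For Rom 6 HPA over Cont 6 HPA, the 3 higher members became 1 under size factors, at 200 UMIs and at 2-fold and 5 with no minimum, and the 2 lower became 0 at 200 UMIs and at 2-fold and 4 with no minimum. For Cont 6 HPA over 0 HPA, the 1 higher became 5 under size factors, and the 9 lower became 4 under size factors, 4 at 200 UMIs and 3 at 2-fold. For Rom 6 HPA over 0 HPA, the 1 higher became 3 under size factors and 0 at 2-fold, and the 4 lower became 0 at 200 UMIs and 2 at 2-fold. Under size factors the member medians were 0.16 for Cont 6 HPA over 0 HPA and 0.11 for Rom 6 HPA over 0 HPA. Size factors turned the sign of 9 of 37 members in Rom 6 HPA over Cont 6 HPA, 15 in Cont 6 HPA over 0 HPA and 9 in Rom 6 HPA over 0 HPA, by construction, since they shift every ratio alike. Thinning turned 3, 2 and 2, and taking each symbol's best counted feature 0, 1 and 2.

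The muscle-like share of nuclei in Rom 6 HPA, Cont 6 HPA and 0 HPA was 97.9%, 99.4% and 95.6% for nuclei with at least 3 UMIs on at least 2 muscle markers, so that grouping takes in nearly all nuclei. Alternatives chosen after seeing the data gave 1.96%, 1.13% and 2.35% without the shallowest sub-cluster, 1.83%, 1.11% and 1.97% without the deepest, and 1.64%, 0.989% and 1.83% for nuclei with at least 3 *Dmd* UMIs, and the order of the libraries was the same in these 3. Leaving out nuclei with markers of another type kept 1, 0 and 0 nuclei and gave no value. No paired analysis was possible because each condition has 1 library. Depth limits members under 200 UMIs, and pools of 1 library per condition limit all else.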
